A study of Danio rerio with 6 samples.

Results

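Fatty acid elongases and desaturases set how long and how unsaturated the acyl chains of a cell's lipids are. The group described here holds 10 genes, 8 elongases (elovl1a, elovl1b, elovl2, elovl4a, elovl4b, elovl5, elovl6 and elovl7a) and 2 desaturases (fads2 and scd), chosen by gene symbol from the 31624 genes of the deposited table. All 10 were found, each as 1 row. The samples are RNA-seq libraries of whole embryos of zebrafish (Danio rerio) raised to 72 hours post fertilization, with 3 samples of wild type and 3 of rhpn2 mutants. Samples of each group are lettered a to c, and runs of 3 values below follow that order. The mutants are labelled as having rhpn2 knocked out, and the column headers call them rhpn2-1, without saying what the 1 stands for. The allele, the method of knockout, the strain, the number of embryos per sample and whether the groups shared parents are not stated in the labels. The p-values therefore measure only how far these samples differ, part of which may be technical.

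Elongases are enzymes of the endoplasmic reticulum that catalyse the condensation opening each cycle of chain lengthening, and each has its own range of substrates. In vertebrates ELOVL6 and ELOVL7 act on saturated chains, ELOVL1 makes the very long saturated and monounsaturated chains of sphingolipids, ELOVL2 and ELOVL5 act on polyunsaturated chains, and ELOVL4 makes the longest chains, found in retina, brain and skin. Stearoyl-CoA desaturase, the product of scd, makes monounsaturated fatty acids, and Fads2 carries out front-end desaturation on the way to arachidonic and docosahexaenoic acid. Docosahexaenoic acid is abundant in photoreceptor membranes.

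Libraries held 14918069 to 17056923 counts. The knocked-out gene itself had 685 to 755 counts in wild type and 188 to 195 in mutants, a 4.34-fold fall (log2 change -2.12). In a principal component analysis of log CPM the groups parted along the first axis (67.2% of variance) and wild type a stood apart on the second (13.0%). Of 20032 genes tested by the quasi-likelihood test of edgeR, 33.2% changed at an adjusted p below 0.05, 16.5% higher and 16.7% lower in mutants. With TMM factors (a trimmed mean over genes) the median change over the table was 0.006 on the log2 scale and 49.7% of calls were higher. With library totals these were 0.113 and 65.1%. Changes below are on the TMM scale, whereas FPKM, which corrects for gene length, is scaled by library totals.

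The elongases and desaturases changed in both directions. All 10 passed the filter on low counts and were tested, but scd passed only through its wild type samples. There scd had 14 to 32 counts, and no mutant sample reached the minimum count of 10. In mutants 6 fell (scd, elovl2, elovl1a, elovl4b, fads2 and elovl7a), 2 rose (elovl4a and elovl6) and 2 did not pass (elovl1b and elovl5). The 8 calls stand beside a background of 33.2% over all genes tested, and the 6 falls beside 16.7%. The median log2 change was -0.71 for the 10 genes and 0.01 for all genes tested. FPKM of the groups did not overlap for the same 8 genes, where 49.0% of all genes tested had groups that did not overlap. Of all genes tested, 31.7% had every mutant above wild type and 17.3% had every mutant below. The genes were chosen with earlier results of these data known, so these counts are a description. Every call and every direction of the 10 genes was kept under the alternatives in which the gene was tested.

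**Figure D1:**
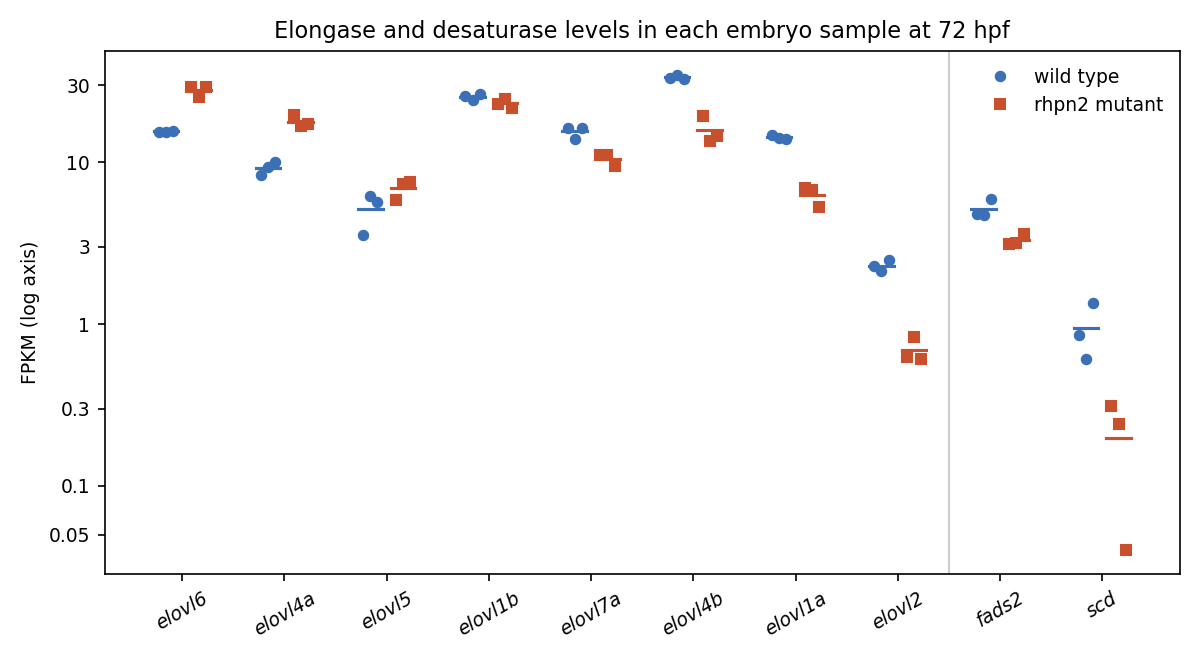
FPKM on a log axis of the 8 elongases and, right of the grey line, the 2 desaturases, with 1 point per sample (circles wild type, squares rhpn2 mutant) and a bar at each group's mean (n = 3). Groups of elovl5 and elovl1b overlap, those of the other 8 genes do not, and scd in mutant c, at 0.04 FPKM, is the lowest point.

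The elongase of saturated palmitate, elovl6 (ENSDARG00000004402, chromosome 14, 35890812 to 35928396, plus strand), was higher in mutants. FPKM was 15.44, 15.47 and 15.61 in wild type, and 29.34, 25.48 and 29.10 in mutants. Every mutant sample was thus above every wild type sample, and the wild type samples were nearly alike. The mean went from 15.5 ± 0.0907 to 28.0 ± 2.16 FPKM (SD, n = 3 each), and edgeR gave a 1.67-fold rise (log2 change 0.74, SE 0.10, adjusted p 0.000116). The span of elovl6 lies within that of si:dkey-286h17.4 on the other strand, a gene with 0 to 2 counts per sample against 476 to 1032 for elovl6.

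A neighbour in function, elovl7a (ENSDARG00000069279, chromosome 8, 16722592 to 16734086, plus strand), went the other way. Wild type samples had 16.32, 14.02 and 16.40 FPKM, and mutant samples had 11.02, 11.10 and 9.49. The groups were separate, with a gap between 11.10 and 14.02 FPKM. The change was a fall of 1.59-fold (log2 change -0.67, SE 0.11, adjusted p 0.000718). In wild type the levels of elovl6 and elovl7a overlapped, whereas in mutants the lowest elovl6 value, 25.48 FPKM, was above the highest of elovl7a, 11.10 FPKM.

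Of the copies of the ELOVL1 gene, elovl1a fell. Its FPKM (ENSDARG00000099960, chromosome 2, 19514901 to 19566048, plus strand) was 14.83, 14.04 and 13.88 in wild type, and 6.91, 6.75 and 5.29 in mutants. All mutant values were below all wild type values. The fall was 2.43-fold (log2 change -1.28, SE 0.12, adjusted p 1.2e-05). Its span overlaps si:dkey-225f23.4 on the other strand, which had 4 to 8 counts per sample.

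The other copy, elovl1b (ENSDARG00000103735, chromosome 11, 13036576 to 13094652, minus strand), did not pass. Its FPKM was 25.64, 24.24 and 26.28 in wild type, and 23.06, 24.72 and 21.74 in mutants. Mutant b lay above wild type b, so the groups overlapped. The log2 change was -0.24 (95% interval -0.44 to -0.04, SE 0.09, unadjusted p 0.0234, adjusted p 0.0645 by edgeR), a mutant level of 0.847 times wild type, with an interval of 0.736 to 0.974 that leaves out a change as large as that of elovl1a. The antisense gene at its start, si:dkey-231n3.4, had no count in any sample. Within each library the log2 ratio of elovl1a to elovl1b, which does not depend on scaling between libraries, was -0.79, -0.79 and -0.92 in wild type and -1.74, -1.87 and -2.04 in mutants. The ratio thus fell by 1.05 on the log2 scale, with separate groups. In an exact two-sided permutation test p was 0.1, the lowest that a comparison of 3 with 3 samples can reach, and 0.12 after adjustment over the 6 ratios compared.

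The copies of ELOVL4 moved in opposite directions. Expression of elovl4b, which in zebrafish is known from the retina, had been the highest of the 10 genes in wild type. Its FPKM (ENSDARG00000027495, chromosome 23, 40517740 to 40545677, plus strand) was 33.13, 34.88 and 32.68 in wild type, and 19.30, 13.46 and 14.57 in mutants. Mutant a was the highest of the mutants and still well below the lowest wild type sample. The fall was 2.30-fold (log2 change -1.20, SE 0.12, adjusted p 1.54e-05).

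Expression of elovl4a (ENSDARG00000006773, chromosome 16, 5256794 to 5267654, plus strand) rose over the same samples. It was 8.33, 9.29 and 10.05 FPKM in wild type, and 19.65, 16.65 and 17.30 FPKM in mutants. No mutant value came near the wild type range. The rise was 1.80-fold (log2 change 0.85, SE 0.10, adjusted p 7.11e-05). Within a library the log2 ratio of elovl4a to elovl4b was -1.99, -1.91 and -1.70 in wild type, and 0.03, 0.31 and 0.25 in mutants. In wild type elovl4a therefore stood at 0.274 times the level of elovl4b, and in mutants at 1.14 times. The ratio differed 4.17-fold between groups (exact two-sided permutation p = 0.1, the smallest possible here, 0.12 after adjustment over the 6 ratios). With elovl4a above and elovl4b below wild type in every mutant sample, that p was fixed by the levels already given and adds nothing to them. Neither copy overlaps another gene of the table, and whether reads of near-identical stretches were shared between copies was not examined here.

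Photoreceptor markers were lower beside elovl4b. Of 21 marker genes 19 were tested, of which 18 fell and 0 rose, where 16.7% of all genes tested fell. The tested marker that did not pass, crx, was at 29.6 FPKM in wild type and 29.4 in mutants (log2 change -0.12, adjusted p 0.604 by edgeR). The median log2 change of the 19 was -1.91, against -1.20 for elovl4b, and no marker was at 0 in all samples. The cone opsin genes opn1sw1 (ultraviolet) and opn1lw2 (red) had log2 changes of -2.61 and -1.92, and the phototransduction genes rcvrn3 and gngt2b had -2.77 and -2.25. The summed level of the markers was 1620 to 2000 FPKM in wild type and 344 to 683 FPKM in mutants. Mutant a, the mutant sample with the most elovl4b, also had the highest of these sums among mutants, 683.4 FPKM against 344.0 and 437.8 in mutants b and c. Wild type samples did not follow that order. Wild type b had the most elovl4b, 34.88 FPKM, and the lowest sum, 1622.9 FPKM against 2003.7 and 1808.2 in wild type a and c. A highest mutant value in mutant a was also not particular to these markers. The gene matn1, chosen below for a profile like that of elovl4b, had 178.59 FPKM there against 140.24 and 149.98 in mutants b and c. The part of the photoreceptor markers in the fall of elovl4b was not tested. In whole embryos fewer cells of a type and less RNA per cell cannot be told apart.

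Of the elongases of polyunsaturated chains, elovl2 fell most among the 8 elongases. Its FPKM (ENSDARG00000045414, chromosome 24, 8720886 to 8747439, minus strand) was 2.28, 2.13 and 2.49 in wild type, and 0.63, 0.83 and 0.61 in mutants, from 122 to 146 and 35 to 52 counts. The groups were far apart relative to their spread. The fall was 3.6-fold (log2 change -1.85, SE 0.19, adjusted p 1.98e-05). On the log2(FPKM + 1) scale, which understates changes of low genes, its change was -0.97.

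Expression of elovl5 (ENSDARG00000004979, chromosome 13, 2236616 to 2259761, minus strand) did not pass the threshold. Wild type samples had 3.56, 6.19 and 5.69 FPKM, and mutant samples had 5.83, 7.32 and 7.56. Wild type a was the lowest sample, and mutant a lay below wild type b. The log2 change was 0.32 (95% interval -0.06 to 0.71, SE 0.18, adjusted p 0.179 by edgeR). Without wild type a it was 0.13, with an adjusted p of 0.50. The log2 ratio of elovl2 to elovl5 was -0.64, -1.54 and -1.19 in wild type, and -3.21, -3.14 and -3.63 in mutants, a ratio 4.6-fold lower in mutants with separate groups (exact two-sided permutation p = 0.1, the smallest possible, 0.12 after adjustment). The ratio of elovl6 to elovl5 did not separate the groups (log2 difference 0.39, exact permutation p = 0.3 before and after adjustment).

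Both desaturases were lower in mutants. The symbol fads2 is that of the deposited table, whereas the gene name table used as a reference pairs the same ID with FADS3, so which desaturase the row measures rests on the deposited symbol. FPKM of fads2 (ENSDARG00000019532, chromosome 25, 4007596 to 4023060, minus strand) was 4.78, 4.73 and 5.93 in wild type, and 3.12, 3.18 and 3.58 in mutants. No mutant sample reached the lowest wild type sample. The fall was 1.68-fold (log2 change -0.75, SE 0.16, adjusted p 0.00306). Relative to elovl5, which acts beside Fads2 in making polyunsaturated fatty acids, the log2 ratio went from a mean of 0.03 ± 0.41 to -1.06 ± 0.15 (SD, n = 3 each, exact permutation p = 0.1, 0.12 after adjustment).

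The stearoyl-CoA desaturase gene scd (ENSDARG00000033662, chromosome 12, 48407393 to 48421350, plus strand) was the least expressed of the 10. It had 20, 14 and 32 counts in wild type (0.86, 0.61 and 1.36 FPKM) and 8, 6 and 1 counts in mutants (0.31, 0.24 and 0.04 FPKM). The groups did not overlap, but few reads stand behind each value. The gene passed the filter on low counts only through wild type, the group where it was high. The fall was 4.97-fold (log2 change -2.31, SE 0.50, adjusted p 0.00375), with a 95% interval of 0.0949 to 0.426 for the ratio of mutant to wild type. Against elovl6, whose product lengthens the saturated chain that Scd then desaturates, the log2 ratio of scd had a mean of -4.12 ± 0.57 in wild type and -7.60 ± 1.65 in mutants (SD of 3 samples per group, exact permutation p = 0.1, 0.12 after adjustment). With scd below and elovl6 above wild type in every mutant sample, that p was fixed by the levels and adds nothing to them. The difference of -3.48 was -2.53 without mutant c, the sample with 1 count.

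**Figure D2:**
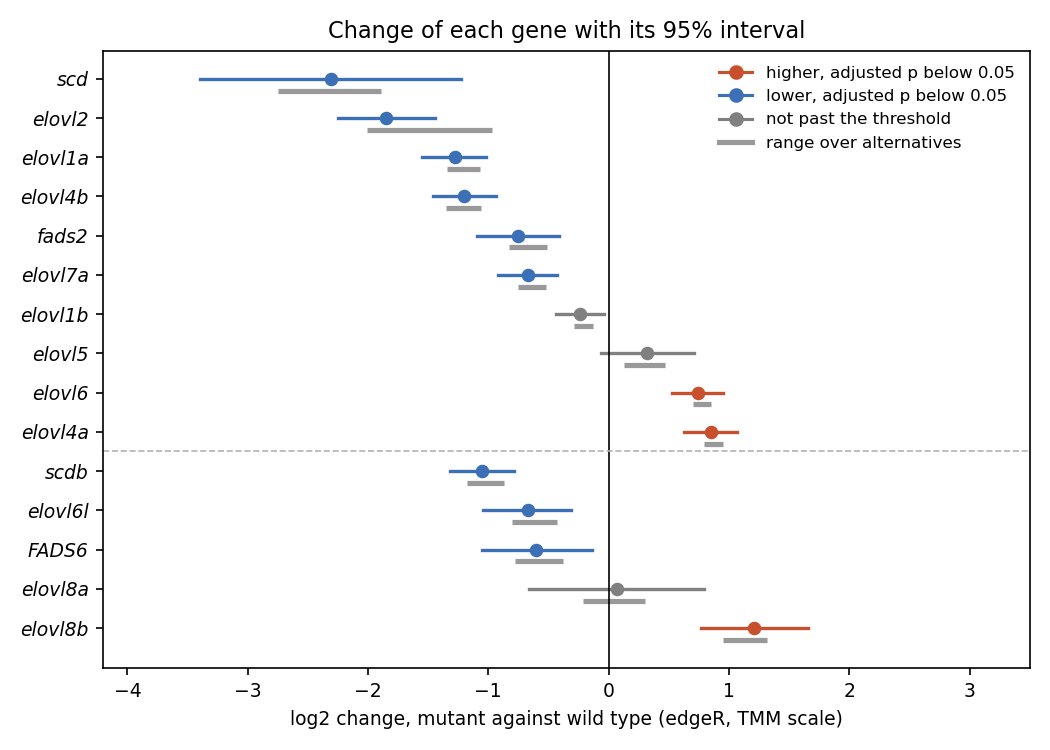
Log2 change from edgeR (point) with its 95% interval (line) for the 10 genes above the dashed line and 5 other elongase and desaturase genes below it, coloured by call, with the range over alternative settings as a grey bar. The 6 falls run from scd at -2.31 to elovl7a at -0.67, elovl6 and elovl4a lie at 0.74 and 0.85, and the grey bar of elovl2 reaches -0.97, the value on the log2(FPKM + 1) scale.

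The order of expression levels changed between groups. In wild type elovl4b led at 33.6 ± 1.16 FPKM, followed by elovl1b at 25.4 ± 1.04, and then by elovl7a, elovl6 and elovl1a at 15.6, 15.5 and 14.2 FPKM. The range of elovl7a overlapped those of elovl6 and elovl1a. The ranges of fads2 and elovl5, both at a mean of 5.15 FPKM, also overlapped. In mutants elovl6 led at 28.0 ± 2.16 FPKM and elovl1b was again next at 23.2 ± 1.49. They were followed by elovl4a at 17.9 ± 1.58 and elovl4b at 15.8 ± 3.10, whose ranges overlapped (SD, n = 3 each). The ranges of elovl5 and elovl1a, at 6.90 and 6.32 FPKM, also overlapped in mutants. Lowest in both groups were elovl2 and scd.

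The summed level of the 10 genes was 125.2, 125.6 and 130.4 FPKM in wild type, and 119.2, 109.7 and 109.3 FPKM in mutants, so all mutant sums were below all wild type sums. The share of elovl6 in that sum went from 12.2 ± 0.204% to 24.8 ± 1.71%, and that of elovl4a from 7.25 ± 0.541% to 15.8 ± 0.658%. Over the same samples the share of elovl4b went from 26.4 ± 1.35% to 13.9 ± 2.03% and that of elovl1a from 11.2 ± 0.602% to 5.60 ± 0.678% (SD, n = 3 each). The share of elovl1b was 20.0 ± 0.612% in wild type and 20.6 ± 1.70% in mutants. These shares of message do not depend on scaling between libraries.

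**Figure D3:**
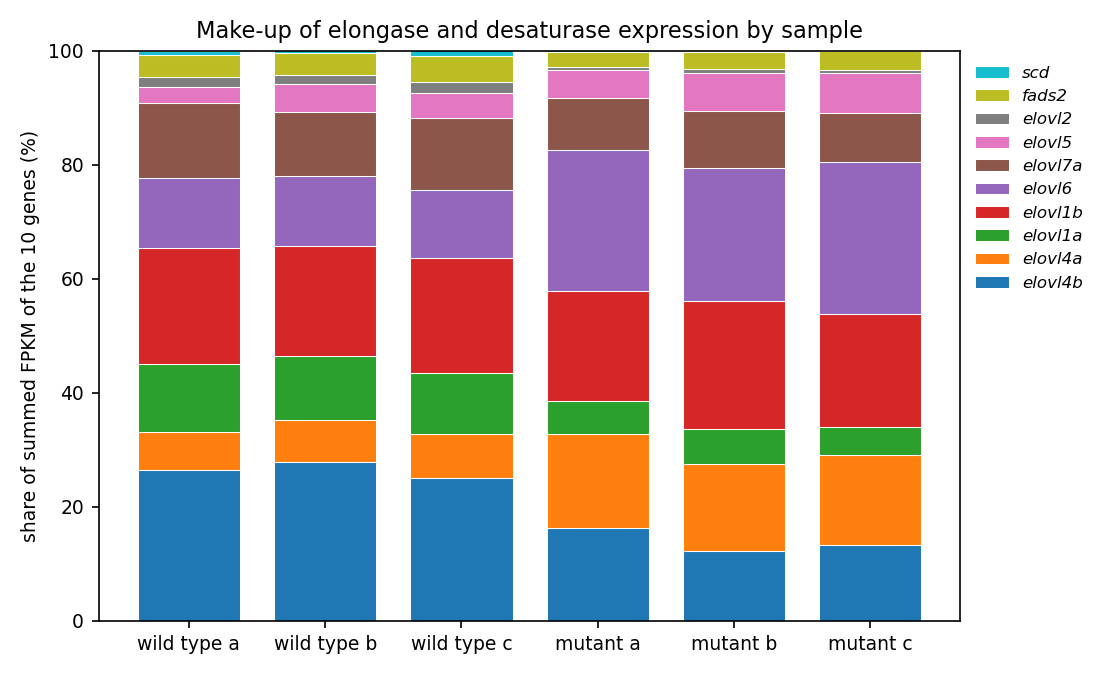
Stacked bars of the share of each gene in the summed FPKM of the 10 genes, in percent, with 1 bar per sample. The wild type bars resemble each other, and in the mutant bars elovl6 and elovl4a take more of the sum (means of 24.8% and 15.8%) and elovl4b and elovl1a less (13.9% and 5.60%).

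Another 5 genes of the table carry an elongase or desaturase symbol (elovl6l, elovl8a, elovl8b, scdb and FADS6). Of these 3 fell and 1 rose, where 16.7% of all genes tested fell and 16.5% rose. The second stearoyl-CoA desaturase gene, scdb, was far more abundant than scd, at 18.36, 15.04 and 20.92 FPKM in wild type and 9.51, 8.93 and 9.73 FPKM in mutants. It fell 2.08-fold (log2 change -1.05, SE 0.12, adjusted p 5.9e-05), in the direction of scd. A relative of elovl6, elovl6l, fell 1.59-fold (log2 change -0.67, adjusted p 0.00902), against the direction of elovl6. Its ID is paired with ELOVL3 in the reference gene names, so its relation to elovl6 rests on the deposited symbol. Expression of elovl8b, a member of an elongase group known from fish, was at 1.61 ± 0.245 FPKM in wild type and rose 2.32-fold, to 4.05 ± 0.504 FPKM (SD, n = 3 per group, adjusted p 0.000799), while elovl8a had a log2 change of 0.07 (95% interval -0.66 to 0.79, adjusted p 0.898). FADS6 fell with an adjusted p of 0.045 and lost that call in 11 of 15 alternatives (adjusted p 0.0622 to 0.167). Of these 5, elovl6l stood on no list and was added after its values were seen.

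Partners of these enzymes were described through a list of 19 genes, which also holds elovl8a, elovl8b, scdb and FADS6 but not elovl6l. Of the 19 genes 3 rose and 7 fell (median log2 change -0.15), where 16.5% of all genes tested rose and 16.7% fell. The rise of elovl8b and the falls of scdb and FADS6, given above, are among them. After the condensation, each elongation cycle runs through a ketoacyl reductase (Hsd17b12), a dehydratase (Hacd) and an enoyl reductase (Tecr). Of 8 genes for these steps, set apart after their values were seen, 3 fell and 0 rose, where 33.2% of all genes tested changed. The 3 falls were hsd17b12a (log2 change -0.84, adjusted p 0.000196), hsd17b12b (-0.55, 0.00197) and tecrb (-0.43, 0.00294). The 4 dehydratase genes had log2 changes of -0.26 to 0.02 and did not pass. The dihydroceramide desaturase genes went in opposite directions, with degs2 at -1.31 and degs1 at 0.46 (adjusted p 8.78e-06 and 0.0027). Of the reductases that pass electrons to cytochrome b5, which feeds desaturases, cyb5r2 fell and cyb5r3 rose (-0.86 and 0.43).

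Genes that supply the substrate changed about as often as the background. Of 13 tested genes of fatty acid synthesis 2 rose and 2 fell, where 33.2% of all genes changed, and the median was -0.04 on the log2 scale. Fatty acid synthase (fasn), whose product makes palmitate, the substrate of Elovl6, was at 6.16 ± 1.10 FPKM in wild type and 6.10 ± 0.762 FPKM in mutants (SD of 3 samples per group) and did not pass (log2 change -0.12, adjusted p 0.467). On the same list mid1ip1l, placed there by its symbol, fell from 20.9 ± 0.575 to 9.46 ± 0.450 FPKM (log2 change -1.25, adjusted p 8.13e-06). The other calls were acss2, which makes acetyl-CoA (0.38, adjusted p 0.00587), mid1ip1a (-0.44, 0.00991) and acacb (0.29, 0.0467). The call of acacb was lost in 7 alternatives (adjusted p 0.0584 to 0.144) and that of mid1ip1a in 1 (0.0605).

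Among 19 regulators of lipid synthesis 3 fell and 0 rose, and the median was -0.18 on the log2 scale. Falls were about as frequent as over all genes tested (16.7%), and changes in either direction were rarer (33.2% over all genes). The largest was insig1, a sterol-sensing brake on SREBP processing and itself an SREBP target, which fell from 12.8 ± 1.5 to 4.63 ± 0.242 FPKM (SD, n = 3 per group, log2 change -1.57, adjusted p 1.46e-06). It lies on chromosome 7, which also carries rhpn2, whereas 0 of the 10 elongases and desaturases lie on that chromosome. Other genes of the lists lie there too, among them hsd17b12b and cers3a, which fell, and nr1h3 and ppargc1a, which did not pass. The part of position on chromosome 7 in these changes was not tested. The coactivator gene ppargc1b fell by 0.64 on the log2 scale (adjusted p 0.000786). Expression of srebf1, whose product activates genes of fatty acid synthesis and desaturation, had a log2 change of -0.44 and an adjusted p of 0.037, a call lost in 10 of 15 alternatives (adjusted p 0.0545 to 0.299). The nuclear receptor gene pparda was at -0.44 and did not pass (adjusted p 0.078).

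Genes of fatty acid uptake, activation and oxidation fell or did not pass. Over all genes tested 33.2% changed, 16.7% lower and 16.5% higher. Of 21 tested genes of acyl-CoA activation and transport 7 fell and 0 rose (median log2 change -0.26). They included mfsd2ab (-0.53, adjusted p 0.000663) and mfsd2aa (-0.66, 0.0152), copies of the transporter that carries docosahexaenoic acid as a lysolipid, and acsl5, cd36 and acsl4a (-0.74, -1.09 and -0.43). Of 21 genes of mitochondrial oxidation 7 fell and 0 rose (median -0.05), led by acaa2, hadh, acadm and cpt1b (-0.68, -0.54, -0.46 and -0.53). Of 19 genes of peroxisomal oxidation, where very long chains are shortened, 9 fell and 0 rose (median -0.31). Of these scp2a fell by 1.17 on the log2 scale, acaa1 by 0.69, abcd3b by 0.58 and crot by 0.33, the last with a call lost in 5 alternatives (adjusted p 0.0521 to 0.114).

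Lists that use the finished chains held changes in both directions. Of 19 genes of ceramide synthesis 4 rose and 5 fell (median log2 change -0.25). The falls included ormdl1, kdsr and sptssa (-0.71, -0.65 and -0.76), and ormdl3 rose (1.20, from 0.653 ± 0.247 to 1.62 ± 0.102 FPKM). Of 24 genes of phospholipid and triglyceride assembly 5 rose and 8 fell (median -0.03), with agpat3, mogat2 and lpin1 at -0.85, -1.65 and -0.63 and mboat2a at 1.28. For all 8 lists the share of genes tested that changed can be set beside the 33.2% of the whole table.

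**Figure D4:**
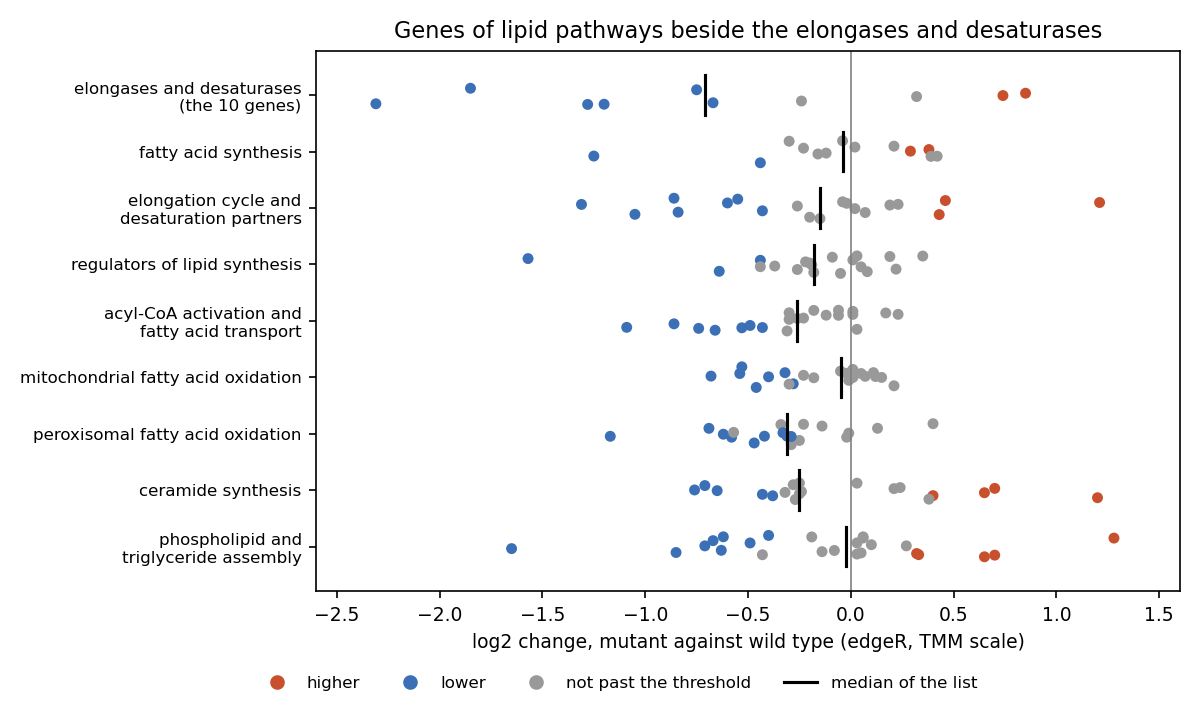
Log2 change from edgeR of each tested gene, in rows for the 10 elongases and desaturases and 8 lists of lipid genes, coloured by call, with a black tick at each median (vertical scatter within a row has no meaning). The 10 genes run from -2.31 to 0.85 with a median of -0.71, while the medians of the 8 lists lie between -0.31 and -0.03.

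Markers of other organs that make or take up these lipids were counted against the same background, in which 16.7% of all genes were lower and 16.5% higher. Of 13 tested liver markers 6 fell and 0 rose, and the summed level of the liver list was 5730 to 6830 FPKM in wild type and 4220 to 5640 in mutants. Most of the liver sums came from apoa2, at a mean of 3870 FPKM in wild type and 3130 in mutants. The groups of apoa2 overlapped and it did not pass (log2 change -0.41, adjusted p 0.0583 by edgeR). Of 11 intestine markers 9 fell and 1 rose (median log2 change -1.27), with sums of 791 to 917 and 640 to 892 FPKM. Most of the intestine sums came from apoa4b.1, at a mean of 537 FPKM in wild type and 456 in mutants. This gene did not pass (log2 change -0.34, adjusted p 0.0687 by edgeR), so these sums say little about the other intestine markers. Of 15 epidermis markers 6 fell and 0 rose, at sums of 10400 to 11500 and 8540 to 10500 FPKM. Of 9 tested markers of the yolk syncytial layer, the tissue that exports yolk lipid, 3 rose and 2 fell, with sums of 9710 to 11400 and 8220 to 11300 FPKM. Both falls were fragile, with calls lost in 7 of 12 alternatives for ctsll and 7 of 15 for apoa1a. The rise of apoba was lost in 2. Most of the yolk sums came from apoa1a and apoa1b, at 4590 and 4310 FPKM in wild type, and mxtx2, at 0 to 3 counts, was not tested. Of 10 myelin and glia markers 2 rose and 4 fell, with sums of 793 to 870 and 879 to 949 FPKM. Most of the myelin and glia sums came from fabp7a, at a mean of 653 FPKM in wild type and 734 in mutants. On the TMM scale fabp7a did not pass (log2 change 0.06, adjusted p 0.708 by edgeR), and the median of the 10 markers was -0.04. The sums of the groups overlapped for the intestine, epidermis and yolk lists. No marker on these lists was at 0 in all samples, and their part in the changes of the elongases and desaturases was not tested.

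Profiles most like those of elovl4b and elovl1b, the members with the highest mean FPKM over all 6 samples, were sought among 10401 other genes with a mean of at least 5 FPKM, as the root mean square distance of centred log2(FPKM + 1) over the 6 samples. Nearest to elovl4b were matn1 (distance 0.0607), slc16a9b (0.0711), si:ch73-28h20.1 (0.0721), scamp5b (0.0807) and ecrg4a (0.0905), with log2 changes of -1.10, -1.20, -1.42, -1.11 and -1.27. Nearest to elovl1b were ginm1, cdh1, myoz1a, cntfr and rtn4a at distances of 0.0200 to 0.0267, with log2 changes of -0.28 to -0.22. Since the genes were chosen by profile over the same 6 samples, log2 changes close to those of each member follow from the choice.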

How the data were processed

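The deposited table gives, per the file headers, whole-number read counts and FPKM for each of 6 samples, exonic gene sizes, coordinates and symbols. The authors deposited the counts without normalization. The deposited FPKM values equal counts per kilobase of exonic size and per total count of the sample, recomputed within 0.006 for 100% of values. Per the submitters' processing notes the tools, listed with no role, included STAR 2.7.10a, Salmon 1.9.0, fastp 0.23.2 and bcl2fastq 2.20.0.422. The genome build, the annotation release and the use of strand in counting are not given in the sources here. Coordinates are therefore those of the table, and overlapping genes on opposite strands may share reads.

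Counts were tested with edgeR 4.0.16 (R 4.3.3) after filterByExpr (minimum count 10, minimum total 15) with TMM factors and group as the only term, and p-values were adjusted by Benjamini-Hochberg over 20032 genes at a threshold of 0.05. SE is the log2 change divided by the square root of F, and 95% intervals are per gene and unadjusted. The fit was tested on simulated data. Replicate pairs differed beyond sampling noise (chi-square over degrees of freedom 4.22 to 14.5) and none were merged. Ratios were tested with SciPy 1.17.1. The labels' letters did not pair the samples.

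The members and lists (8 of lipid genes, 6 of markers, 235 of 246 symbols found) were chosen with earlier results of these data known. Named genes are the 10 members, rhpn2, the 4 genes of a list with the smallest p and the 5 nearest profiles of the 2 members with the highest mean over all samples. Others were chosen after their values were seen. Of the marker lists other than photoreceptors only counts and summed levels are given, with some additions. These are apoa2 for liver, the median and apoa4b.1 for intestine, and the median and fabp7a for myelin and glia. For the yolk syncytial layer they are apoa1a, apoa1b, apoba, ctsll and mxtx2. Protein and promoter sequences were not used here. Alternatives covered scaling, filters on low counts, DESeq2 1.42.0, limma 3.58.1 on log2(FPKM + 1) and log2(FPKM + 0.1), the replicate letter as a block, and leaving out each sample.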

Additional observations from a re-analysis of the deposited data

How the results depend on the processing

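The 2 rises and 6 falls among the 10 genes were kept under each alternative that tested the gene. At a mean FPKM of at least 1 (limma) and at a mean count of at least 50, scd was left out and 5 falls remained of 9 genes tested. Log2 changes ranged over alternatives from 0.70 to 0.85 for elovl6, 0.79 to 0.95 for elovl4a, -1.34 to -1.07 for elovl1a, -1.35 to -1.06 for elovl4b, -2.01 to -0.97 for elovl2, -0.75 to -0.52 for elovl7a, -0.83 to -0.51 for fads2 and -2.75 to -1.89 for scd. For elovl1b and elovl5, which did not pass in any of them, the adjusted p was at least 0.0547 and 0.0841.

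Over all genes, limma was run on FPKM scaled by library totals and 17737 genes. It called 2006 genes lower and 3859 higher with a pseudocount of 1, and 1876 lower and 3507 higher with 0.1. The edgeR fit, on counts of 20032 genes with TMM factors, called 3347 lower and 3307 higher. With the letter as a replicate block 5356 genes changed instead of 6654. Same-lettered samples did not deviate together (correlations of -0.116, -0.049 and -0.162), and no sample correlated best with its own letter. Leaving out each sample gave 4886 to 6710 changed genes. Of the other single-gene values, 70 lost and 2 gained a call, and none changed direction with a call.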
